A study of Mus musculus with 12 samples.

Results

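The regions described here are the 204 BRWD1 peaks that were found in both BRWD1 replicates and had no peak of acetylated histone H3 lysine 9 (H3K9Ac). They come from chromatin immunoprecipitation sequencing of small pre-B cells of the mouse, which had been flow sorted as lineage-negative B220+ CD43- IgM- bone marrow cells of low forward scatter. The mice had the C57BL/6 strain background; the labels name wild-type and Brwd1 mutant animals as sources of cells for the series, but give neither genotype nor age for the ChIP-seq samples, so the genotype behind these lists is not known here. Of the 12 samples of the series, the 6 peak lists used came from antibodies to BRWD1, to H3K9Ac and to histone H3 with both phosphorylated serine 10 and acetylated lysine 14 (H3S10pK14Ac), with 2 biological replicates each. The 2 BRWD1 lists held 5814 and 9966 peaks on chromosomes 1 to 19, X and Y (replicates 1 and 2). The H3K9Ac lists held 10118 and 16453 peaks, and the H3S10pK14Ac lists 103 and 10638. A peak of BRWD1 replicate 1 was included if it overlapped a BRWD1 replicate 2 peak by at least 1 bp and overlapped no H3K9Ac peak of either replicate, whatever its H3S10pK14Ac. This held for 3.51% of the 5814 replicate 1 peaks and for 29.8% of the 685 found in both replicates. The other 481 of the 685 overlapped H3K9Ac, 246 of them without and 235 of them with H3S10pK14Ac. Positions are on mm9, and no gene annotation or sequence of that build was used, so the peaks are given by position alone.

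BRWD1 carries a pair of bromodomains, which bind acetylated lysines, and WD repeats, a fold that mediates protein contacts. H3K9Ac lies at active promoters and enhancers, and phosphorylation of serine 10 beside acetylated lysine 14 is a combined mark of the same histone tail. Small pre-B cells have left the cell cycle and rearrange the immunoglobulin kappa locus, Igk, a step in which BRWD1 is known to act. The question here was what BRWD1 peaks look like where H3K9Ac, the more widespread of the marks measured, was not called.

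The selection rests on calls in 4 lists. The peaks were selected on the calls of both BRWD1 and both H3K9Ac lists, so BRWD1 scores and widths and the distance to H3K9Ac are given as descriptions, without a test. H3S10pK14Ac took no part in the choice. An exact two-sided permutation test of 2 lists against 2 cannot give a p below 1/3, so no test over lists was made, and differences between classes of peaks named below were not tested. Shares carry 95% Wilson intervals in parentheses, which allow for counting error alone. Read depth is unknown. H3S10pK14Ac replicate 1 stands apart as a short list, and results for the mark are given for each replicate.

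These 204 peaks were weak members of the reproducible set but stood above most of their own lists. The score, the authors' −log10 significance of a peak, was 5.10 at the lowest, 6.91 at the median and 20.6 at the highest in replicate 1. In replicate 2 the overlapping peaks scored from 5.06 through a median of 7.00 to 32.3. Within the list, the median of the 204 stood at percentile 84.3 in replicate 1 and 85.5 in replicate 2. The 246 reproducible peaks with H3K9Ac alone had median percentiles of 93.4 and 93.2, and the 235 with both marks 97.0 and 98.8. The peaks without H3K9Ac thus had the lowest median of the 3 classes in each list, with wide overlap between classes. In the whole of each list the median score was 5.47 and 5.70.

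**Figure D1:**
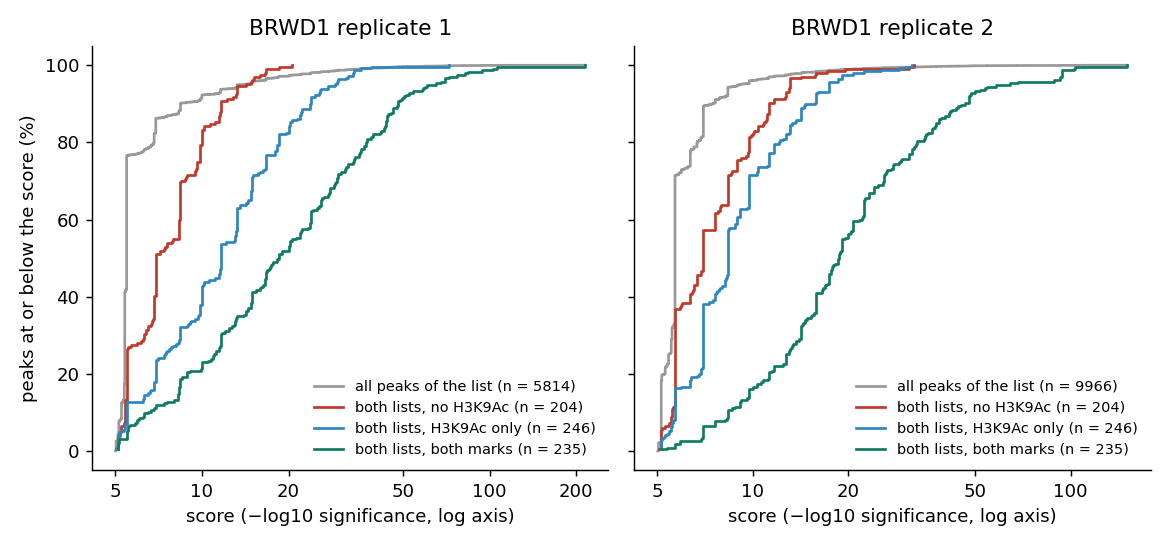
Cumulative share of peaks (y axis, percent) at or below a BRWD1 score (x axis, −log10 significance, log scale) in replicates 1 and 2, for all peaks of the list and for the 3 classes found in both lists. The curve of the 204 peaks without H3K9Ac lies between that of the whole list and that of the peaks with H3K9Ac alone over most of the range, with medians of 6.91 and 7.00.

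Few of the 204 were strong in both replicates. A score of 10 or more was reached by 34 in replicate 1 and by 37 in replicate 2, but by 5 in both (2.45%, 1.05 to 5.61). Of the 481 reproducible peaks with H3K9Ac, 216 reached it in both (44.9%, 40.5 to 49.4). Those with H3K9Ac alone gave 19.9% and those with both marks 71.1%. The scores of the 2 replicates followed each other loosely over the 204 peaks (Spearman's rho 0.11), against 0.55 over the 481. Both values are across peaks of the same 2 libraries and both are affected by ties. Replicate 1 scores also spanned a narrower range over the 204 (5.10 to 20.6) than over the 481 (5.03 to 214.6), which was not allowed for. The scores are stepped: 27 of the 204 had the value 5.47 in replicate 1, which 2012 peaks of that list share, and 51 had 5.70 in replicate 2, which 3820 peaks share. At the other end, 28 of the 204 lay above percentile 90 of both lists, and 7 lay below the median of both.

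**Figure D2:**
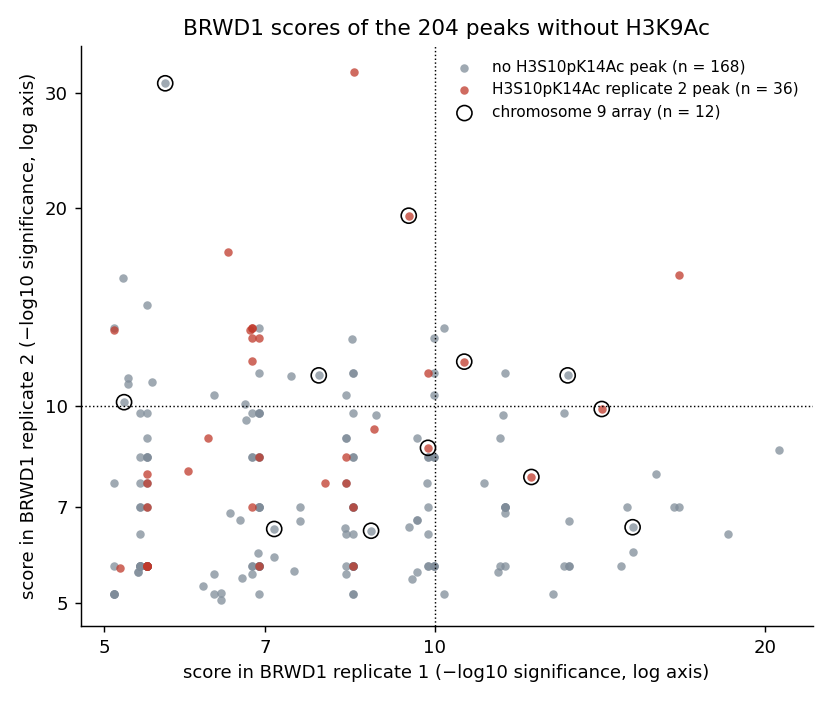
Each point is one of the 204 peaks, by its score in BRWD1 replicate 1 (x axis) and in replicate 2 (y axis), both −log10 significance on log scales; dotted lines mark a score of 10. Only 5 points lie above both lines; red points (n = 36) have an H3S10pK14Ac replicate 2 peak, and circles mark the 12 peaks of the chromosome 9 array.

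How often a BRWD1 replicate 1 peak was found again was higher in higher score bands in both classes, and lower without H3K9Ac in each band below 20; the difference was not tested. Without H3K9Ac, 1.32% of 4302 peaks scored under 6 were found in replicate 2, 16.8% of 672 scored 6 to under 10, and 45.2% of 73 scored 10 to under 20. With H3K9Ac the shares were 27.9%, 51.4% and 78.7% of 179, 212 and 211 peaks. Above 20 a single replicate 1 peak lacked H3K9Ac, and it was reproducible. It is the highest-scored of the 204 in replicate 1, at chr1:124253742-124253813 (score 20.6), and its replicate 2 partner scored 8.56. Recurrence in replicate 2 was part of the rule, so these shares are a description.

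The peaks were narrow, and the 2 replicates placed most of them within 50 bp of each other. The median width was 69 bp in replicate 1 (59 to 193 bp) and 245 bp in replicate 2 (148 to 643 bp). Reproducible peaks with H3K9Ac had medians of 81 and 257 bp, and all peaks of the lists 71.5 and 196 bp. In 165 of the 204 (80.9%), the replicate 1 peak lay wholly inside the wider replicate 2 peak. The midpoints differed by a median of 15.2 bp and at most by 278 bp. The 204 replicate 1 peaks met 201 peaks of replicate 2, because 6 of them shared a partner with a neighbour. The 5 widest in replicate 1 were 193 bp on chromosome 3 (9527773 to 9527965), 191 bp on chromosome 14 (119581166 to 119581356), 171 bp on chromosome 6 (140448946 to 140449116), 149 bp on chromosome 4 (55550030 to 55550178) and 144 bp on chromosome 16 (72644524 to 72644667). None of these 5 reached a score of 10 in replicate 1, and the chromosome 6 peak did so in replicate 2.

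The 10 with the best mean rank in both lists show what the strongest of these sites look like. The first lay at chr17:51801395-51801493, with scores of 16.71 and 15.81 (ranks 201 and 160), and an H3K9Ac peak 3.14 kb away. The second, at chr9:110183774-110183837, scored 8.45 in replicate 1 and 32.26 in replicate 2, the highest replicate 2 score of the 204. A further 3 belonged to the array at the start of chromosome 9 described below. The others were chr9:14492786-14492874 (scores 11.6 and 11.22), chr17:48050633-48050701 (10.19 and 13.14), chr10:28846725-28846804 (9.99 and 12.71), chr1:124253742-124253813 (20.61 and 8.56) and chr6:10050361-10050451 (13.12 and 9.76). Of the 10, 7 lay within 10 kb of an H3K9Ac peak, 4 of them within 1 kb, and 4 had H3S10pK14Ac. The 3 that lay farther off were those on chromosomes 10, 1 and 6, at 234.1, 157.2 and 84.0 kb. The 3 array sites are among the 7, and both counts of 4 include array sites as well. Of all BRWD1 replicate 1 peaks without H3K9Ac, 14.9% lay within 10 kb of H3K9Ac. Of all BRWD1 replicate 1 peaks, 5.14% overlapped H3S10pK14Ac replicate 2.

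The widest disagreements between replicates were all in one direction. The 3 largest differences in score percentile were chr6:140448946-140449116 (percentiles 3.51 and 97.6 in replicates 1 and 2), chr6:15886068-15886130 (3.51 and 97.5) and chr18:51741059-51741117 (8.02 and 98.2). Each scored at most 5.20 in replicate 1 and at least 13.04 in replicate 2. Among the 204, the percentile was higher in replicate 2 for 27 of the 36 with H3S10pK14Ac and 81 of the 168 without.

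The median distance of the 204 to H3K9Ac was close to that of BRWD1 peaks found in replicate 1 alone. A larger share of the 204 lay at short range, and the difference was smaller without an array of sites on chromosome 9. The distance to the nearest H3K9Ac peak of either replicate was 0.047 kb at the lowest, 59.7 kb at the median (95% interval of the median 45.9 to 76.6) and 2038.2 kb at the highest. For the 4844 BRWD1 replicate 1 peaks that had neither a replicate 2 partner nor H3K9Ac, the median was 59.0 kb (56.1 to 62.5). Of the 204, 17 lay within 1 kb (8.33%, 5.27 to 12.9), 45 within 10 kb (22.1%, 16.9 to 28.2) and 134 within 100 kb (65.7%, 58.9 to 71.9). Of all BRWD1 replicate 1 peaks without H3K9Ac, 14.9% lay within 10 kb, and of the 4844 found once, 2.27%, 14.6% and 63.7% lay within the 3 distances. The chromosome 9 array accounts for 12 of the 45. Outside it, 7 of 192 lay within 1 kb (3.65%, 1.78 to 7.33) and 33 within 10 kb (17.2%, 12.5 to 23.2), and the median was 68.9 kb. The peaks found once had 2.27% and 14.6% at these 2 distances, and the differences were not tested.

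**Figure D3:**
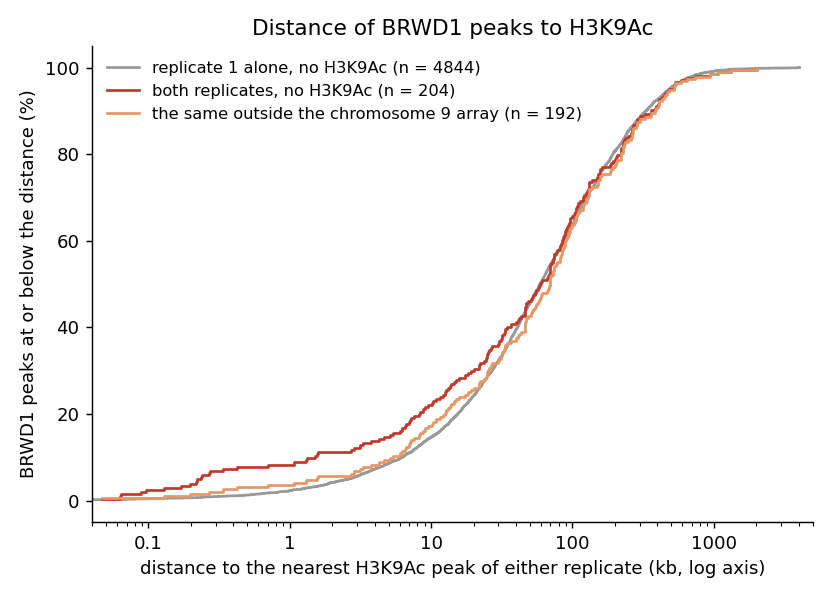
Cumulative share of BRWD1 peaks without H3K9Ac (y axis, percent) by distance to the nearest H3K9Ac peak of either replicate (x axis, kb, log scale). Of the 204 peaks, 22.1% lie within 10 kb against 14.6% of those found in replicate 1 alone, and 65.7% against 63.7% within 100 kb; without the 12 array peaks, 3.65% lie within 1 kb against 2.27%.

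The denser H3K9Ac list supplied most of the neighbours. The nearest peak came from H3K9Ac replicate 2 for 152 of the 204 and from replicate 1 for 52. Taken by list, the median distance was 162.0 kb to replicate 1 and 73.5 kb to replicate 2. H3K9Ac lay on both sides within 100 kb for 57 of the 204 and within 10 kb for 14. Both counts include sites of the chromosome 9 array, and they are given without a share for other BRWD1 peaks. For the 33 outside the array with H3K9Ac within 10 kb, the nearest H3K9Ac peak had a median width of 231 bp and a median score percentile of 37.3 in its own list. Of those 33 neighbours, 6 overlapped a BRWD1 peak of either replicate, where 10.7% and 6.30% of all H3K9Ac peaks of replicates 1 and 2 did. The BRWD1 peak so met can be the replicate 2 partner of the site itself. That partner overlapped H3K9Ac for 6 of the 204, 4 of them in the array. The comparison is therefore not like for like.

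All 5 peaks that scored 10 or more in both BRWD1 replicates lay close to H3K9Ac. Their distances were 0.047 kb (chr17:48050633-48050701), 0.240 kb (chr9:3031999-3032064), 0.338 kb (chr9:14492786-14492874), 1.32 kb (chr9:3037999-3038066) and 3.14 kb (chr17:51801395-51801493). Of the 61 with such a score in a single replicate, 19 lay within 10 kb (31.1%, 20.9 to 43.6), and of the 138 with lower scores in both, 21 did (15.2%, 10.2 to 22.1). Outside the array the counts were 3 of 3, 12 of 54 and 18 of 135, in the same order. These bands were chosen after the values were seen.

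At the edge of the rule the separation was small for a handful of peaks. The 3 nearest to H3K9Ac were chr17:48050633-48050701, 47 bp away, chr9:3023209-3023270, 63 bp away, and chr9:3032661-3032728, 64 bp away. The 3 reproducible peaks that were left out on the shortest overlap shared 7 bp (chr12:109587637-109587710), 39 bp (chr2:135625977-135626037) and 39 bp (chr3:128016141-128016256) with an H3K9Ac peak, at replicate 1 scores of 8.42, 5.55 and 5.10. For 6 of the 204, the wider replicate 2 partner did overlap H3K9Ac, 4 of them in the array. The 3 farthest were chr15:23624658-23624747 at 2038.2 kb (scores 11.6 and 7.00), chrX:30767389-30767489 at 1333.6 kb (5.47 and 5.70) and chrX:73844378-73844442 at 1069.6 kb (5.96 and 7.96).

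The number of peaks that qualify depends on both H3K9Ac lists. Without H3K9Ac replicate 1 the rule gave 400 peaks, and without replicate 2 it gave 275. When only H3K9Ac peaks above the median score of their list counted, it gave 315. An absent H3K9Ac call is therefore a statement about 2 lists and their thresholds, and the level of H3K9Ac at these sites was not measured here.

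H3S10pK14Ac was present at a minority of the 204. In replicate 2, 36 overlapped a peak of this mark (17.6%, 13.0 to 23.5), where 5.14% of all BRWD1 replicate 1 peaks did. In the short list of replicate 1, 0 did (0%, 0 to 1.85), and the share of all BRWD1 replicate 1 peaks was 0.636%. The mark's presence here thus rests on a single library. Among the 481 reproducible peaks with H3K9Ac, 233 overlapped replicate 2 (48.4%, 44.0 to 52.9) and 33 overlapped replicate 1 (6.86%, 4.93 to 9.48). Among the 4844 without H3K9Ac and found in BRWD1 replicate 1 alone, 22 (0.454%, 0.300 to 0.687) and 2 did. Outside the chromosome 9 array the replicate 2 shares were 16.1% of 192 without and 45.9% of 455 with H3K9Ac. A further 7 of the 204 had an H3S10pK14Ac replicate 2 peak within 1 kb without overlap.

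In the bands of the BRWD1 replicate 2 score below 10, H3S10pK14Ac was listed about as often with as without H3K9Ac. At higher replicate 2 scores, and in each band of the replicate 1 score, the share was lower without H3K9Ac. These differences were not tested, and scores within a band were not matched between the classes. By replicate 2 score, the share with H3S10pK14Ac replicate 2 was 10.3% of 78 peaks without H3K9Ac and 12.8% of 47 with it when the score was under 6. It was 16.9% of 89 (10.5 to 26.0) and 18.0% of 167 (12.9 to 24.5) at scores of 6 to under 10. At 10 to under 20 it was 34.3% of 35 (20.8 to 50.8) and 59.5% of 158 (51.7 to 66.8). By replicate 1 score, the bands gave 19.3%, 18.6% and 12.1% without H3K9Ac and 38.0%, 31.2% and 40.4% with it. Without H3K9Ac, the share was thus higher in higher bands of the replicate 2 score but not of the replicate 1 score. Without the array the shares of the 204 by replicate 1 score were 20%, 17.6% and 3.57%, and by replicate 2 score 10.3%, 14.5% and 33.3%. At scores of 20 or more only 1 and 2 of the 204 remained. Whether the replicate 2 libraries of BRWD1 and H3S10pK14Ac share cells or a preparation is not given in the labels, and its part in this pattern was not tested.

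**Figure D4:**
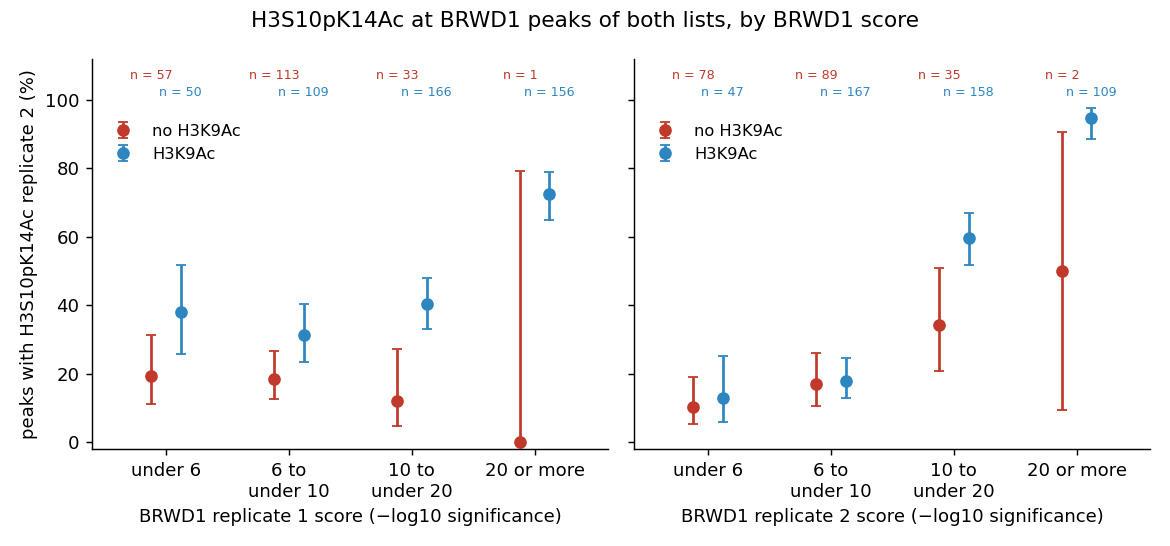
Share of BRWD1 peaks found in both lists that overlap H3S10pK14Ac replicate 2 (y axis, percent; bars are 95% Wilson intervals) in bands of the BRWD1 score (x axis) of replicate 1 (left) and replicate 2 (right), without H3K9Ac (red) and with it (blue). In the right panel the 2 classes lie within 3 percentage points of each other below a score of 10 and apart at 10 to under 20 (34.3% and 59.5%).

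The 36 sites with H3S10pK14Ac had higher BRWD1 scores than the other 168 in replicate 2 but not in replicate 1, a difference that was not tested. Their median score percentile was 93.2 in replicate 2 and 81.1 in replicate 1, while the 168 had 80.1 and 86.4. The score percentile within its list was higher in replicate 2 than in replicate 1 for 27 of the 36 (75%) and for 81 of the 168 (48.2%). The BRWD1 midpoints of the 2 replicates lay a median of 4.50 bp apart at the 36 and 20.8 bp apart at the 168. In 24 of the 36 the BRWD1 replicate 1 peak lay wholly within the H3S10pK14Ac peak. The H3S10pK14Ac peaks were 226.5 bp wide at the median, and their starts and ends lay a median of 21.5 and 17.5 bp from those of the BRWD1 replicate 2 peak. Both ends lay within 30 bp for 11 of the 36. The H3S10pK14Ac midpoint was nearer to that of BRWD1 replicate 2 than to that of replicate 1 for 18 of the 36.

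These H3S10pK14Ac peaks stood above the middle of their list at the median, but below those at reproducible BRWD1 peaks with H3K9Ac. They scored 5.43 at the lowest, 6.65 at the median and 19.6 at the highest, a median percentile of 74.9, and 9 of them had the commonest score of that list, 5.56. At reproducible BRWD1 peaks with H3K9Ac the median was 9.68, at percentile 97.9. The 5 highest-scored among the 36 were chr4:118221154-118221296 (H3S10pK14Ac score 19.55, rank 35 of 10638), chr14:54242526-54242593 (11.72), chr9:3032661-3032728 (11.38), chr9:3015263-3015368 (9.97) and chr14:60681070-60681134 (9.23). At the chromosome 4 site, the strongest H3S10pK14Ac peak of the 36 met weak BRWD1 peaks, of scores 5.17 and 5.65, at percentiles 7.83 and 32.5, with H3K9Ac 0.197 kb away. The 2 sites on chromosome 14 scored 6.82 in BRWD1 replicate 1 and 12.71 and 11.7 in replicate 2, with H3K9Ac 222.0 and 12.6 kb away.

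Sites with H3S10pK14Ac were found both near to and far from H3K9Ac. Of the 36, 15 lay within 10 kb of it, a larger share than the 30 of the 168 without the phosphorylated mark. Outside the array the counts were 10 of 31 and 23 of 161, with median distances of 46.3 and 69.8 kb. Of all BRWD1 replicate 1 peaks without H3K9Ac, 14.9% lay within 10 kb. The differences were not tested. The farthest of the 36 was the site on chromosome X at 73844378 to 73844442, which lay 1069.6 kb from H3K9Ac and had an H3S10pK14Ac peak of score 8.68.

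Most of the 204 had no other of the 204 nearby, and a single short stretch of chromosome 9 held their only dense group. BRWD1 peaks outside the 204 were not counted as neighbours. By gaps of at most 10 kb among the 204, 188 were solitary and 4 formed 2 pairs. The other 12 formed 2 runs at the start of the assembled chromosome 9. The pairs lay on chromosome 3 (9527773 to 9528408) and chromosome 6 (140448946 to 140449246), and in each the 2 replicate 1 peaks met the same replicate 2 peak. The share in runs was 7.84%, against 12.7% of the reproducible peaks with H3K9Ac. Without the chromosome 9 array it was 2.08% of 192, against 7.69% of 455, a difference that was not tested. Each share counted neighbours of its own class only, and the classes differ in size. Neighbouring peaks of the 204 on a chromosome lay a median of 6.53 Mb apart. The 204 fell into 183 windows of 1 Mb, and outside the array no window held more than 2.

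The chromosome 9 array ran from 3000991 to 3038242, a length of 37.3 kb, with runs of 3 peaks (3000991 to 3005163) and 9 peaks (3015263 to 3038242). Mouse chromosomes have their centromere at the end that is numbered first, and the assembled sequence starts beyond it. Peaks of 5 lists were packed into the stretch: 42 and 32 of BRWD1, 7 and 22 of H3K9Ac, and 24 of H3S10pK14Ac replicate 2, with 0 of H3S10pK14Ac replicate 1. No list had a peak between 5.07 and 14.2 kb from its start. The BRWD1 peaks covered 10.1% and 27.5% of it, and the H3S10pK14Ac replicate 2 peaks 19.2%. Of the 42 BRWD1 replicate 1 peaks, 26 were reproducible with H3K9Ac (24 of them with H3S10pK14Ac as well), 12 were reproducible without H3K9Ac, and 4 were found in replicate 1 alone. How reads that match more than one place in the genome were handled is not stated in the labels, and its part in the array was not tested.

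The 12 array sites without H3K9Ac lay beside or between H3K9Ac peaks. The distance to the nearest H3K9Ac peak ran from 63 to 1504 bp, and 10 of the 12 lay within 1 kb. Their BRWD1 scores were 5.21 at the lowest, 9.66 at the median and 15.2 at the highest in replicate 1, and 6.45, 10.0 and 31.0 in replicate 2. The highest in replicate 1 was 3019309 to 3019380, with a score of 6.53 in replicate 2. The highest in replicate 2 was 3023209 to 3023270, which scored 5.68 in replicate 1. Of the 12, 5 overlapped H3S10pK14Ac replicate 2 (41.7%, 19.3 to 68.0), at 3002949 to 3003020, 3015263 to 3015368, 3027439 to 3027505, 3031999 to 3032064 and 3032661 to 3032728, and 10 lay within 1 kb of it. The last pair, at 3037999 and 3038184, met the same replicate 2 peak and lay farthest from H3K9Ac, at 1319 and 1504 bp.

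**Figure D5:**
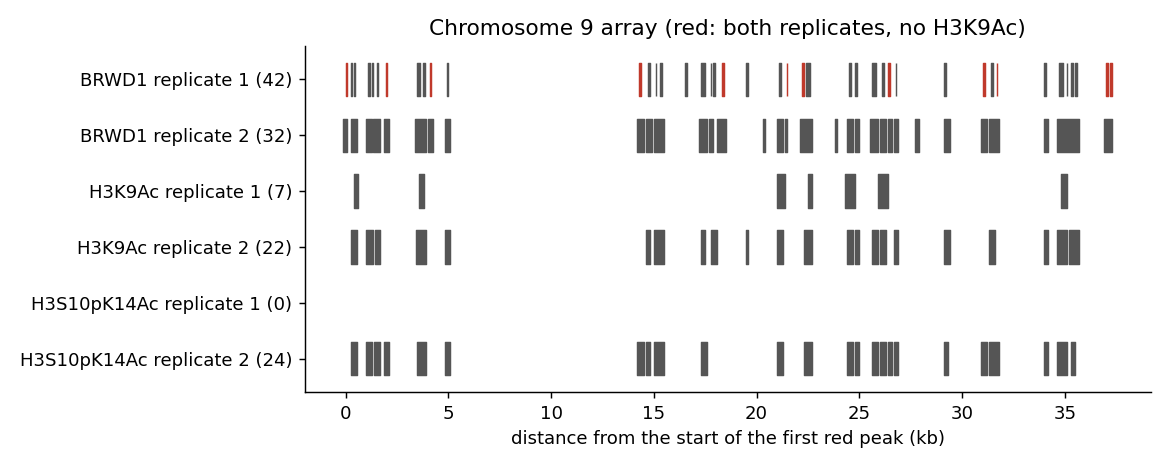
Peaks of the 6 lists over the 37.3 kb array at the start of chromosome 9 (x axis, kb from the start of its first peak without H3K9Ac; each bar spans 1 peak, with the number of peaks per list beside its name). The 12 reproducible BRWD1 peaks without H3K9Ac are red and sit beside or between the 22 H3K9Ac replicate 2 peaks; all 5 lists with peaks here leave the same stretch from 5.07 to 14.2 kb empty.

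With the array, chromosome 9 held more of the 204 than any other chromosome, 23 or 11.3%, where 6.02% of all BRWD1 replicate 1 peaks lay. Without it, 11 of 192 remained there (5.73%). Chromosomes 2, 3 and 1 followed, with 20, 18 and 15, and chromosomes 7, 16 and 18 held 5 each, chromosome 19 held 4 and chromosome Y 0. The shares on chromosomes 2, 3 and 1 were 9.80%, 8.82% and 7.35%, against 8.07%, 7.03% and 7.95% of all BRWD1 replicate 1 peaks. Chromosomes 7, 16 and 18 held 2.45% each, against 4.27%, 4.32% and 3.59%, and chromosome 19 held 1.96%, against 2.41%. On chromosome Y the whole BRWD1 replicate 1 list had 1 peak. These differences were not tested.

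The immunoglobulin loci held too few BRWD1 peaks to compare. In the Igk window (chromosome 6, 67 to 71 Mb) BRWD1 replicate 1 had 12 peaks and in a 4 Mb window over the heavy chain locus, Igh, on chromosome 12 it had 10, and 0 of either met the rule. At the 3.51% of all BRWD1 replicate 1 peaks that met it, fewer than 1 peak would be counted in each window, so these counts do not set the loci apart.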

How the data were processed

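Only the 6 ChIP-seq peak lists of small pre-B cells were used, without the 2 input and 4 ATAC-seq samples. Per the submitters' processing notes, Trimmomatic 0.32, BWA 0.7.5, Picard and MACS2 were used on mm9; their settings, the input behind each list and the handling of reads with several matches are not stated in the labels used here. The authors deposited 1 list per replicate, with a score that is −log10 of a p-value or q-value (which of these is not given) and is above 5 throughout; it was used only to rank or band peaks within a list. Samples were grouped by title. No count of reads is given, so depth is unknown.

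Overlaps of at least 1 bp, distances between nearest ends and runs (gaps of at most 10 kb) were computed in Python 3.11.15 with numpy 2.4.6, scipy 1.17.1 and pandas 2.3.3, and tested on simulated peaks against bedtools 2.31.1. Percentiles use mean ranks of ties. Where several peaks overlapped, the longest overlap was the partner. Intervals of medians are 95% binomial intervals of order statistics. Printed positions count the first base as 1.

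The regions and the lists of features were chosen with earlier results of these data known. Named sites are the 10 best mean ranks, runs of 3 or more, the 5 highest H3S10pK14Ac scores, the 3 nearest to and farthest from H3K9Ac, the 5 widest, the 3 largest percentile differences, and any in the Igk or Igh window. The planned sequence and gene comparisons need an mm9 genome and annotation, which were not used here. Alternatives covered the overlap, the H3K9Ac distance and threshold, each H3K9Ac and H3S10pK14Ac list left out, the anchor list, scores, sequence names, run distance and distance measure. Leaving out the array, counting each replicate 2 peak once and a partner without H3K9Ac were added after seeing the data.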

Additional observations from a re-analysis of the deposited data

Results flagged for a closer look

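Peaks on the mitochondrial sequence were left out of all comparisons. BRWD1 replicate 2 had 16 such peaks, H3K9Ac replicate 2 had 15 and H3S10pK14Ac replicate 2 had 4, each above the limit of 3 that a count of 0 allows. Including this sequence added 0 peaks to the 204.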

How the results depend on the processing

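Of 115 values recomputed for 9 results under 18 settings, 91 stayed inside the interval of the reported value (for the number of sites, within 1.5 times). The other 24 moved, and whether a direction reversed was not assessed. Leaving out an H3K9Ac list gave 275 to 400 sites, since fewer H3K9Ac peaks exclude fewer sites. H3S10pK14Ac then ranged from 18 to 29.5%, and the width from 69 to 72 bp. The median percentile ranged from 86.6 to 90.2 in BRWD1 replicate 1 and stood at 90.6 in replicate 2 in both cases. The distance, taken to the 1 H3K9Ac list kept, ranged from 73.9 to 142.9 kb, and the share within 10 kb from 16.4 to 18%. The share in runs ranged from 5.50 to 14.2%. For the unchanged 204 sites, H3S10pK14Ac was 0 without H3S10pK14Ac replicate 2. H3K9Ac peaks above their median score gave 315 sites, with a distance to those peaks of 151.3 kb and 12.4% within 10 kb. Demanding no H3K9Ac within 1 kb left 15% within 10 kb and 3.21% in runs. BRWD1 replicate 2 peaks as anchor gave 3.59% in runs, and leaving out the array gave 2.08%. BRWD1 scores of 10 or more in both replicates left 5 sites, with H3S10pK14Ac at 40%, percentiles of 93.4 and 97.0, a distance of 0.338 kb, 100% within 10 kb and 40% in runs. A BRWD1 replicate could not be left out, because the rule needs both. No paired analysis was possible because no result comes from a test over samples.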
